A study of Mus musculus with 2 samples.

Results

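Organic ion and ABC transporters are the membrane proteins that carry bile acids, drugs, steroid conjugates, carnitine and sterols into and out of cells. They were taken here as every gene whose symbol begins with Slco and a digit, Slc22a, Slc10a, Slc51, or Abca, Abcb, Abcc, Abcd or Abcg and a digit. Of 97 such genes in the reference annotation, 93 had a probe on the arrays, among 20886 genes with a probe in all. Those 93 genes were covered by 117 probes. No probe was matched to Abca16, Slc10a4l, Slc22a30 or Slco6b1.

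The study measured RNA in liver and in adipose tissue of wild-type male C57BL/6J mice after 4 weeks on a normal diet (ND) or a diet high in fat (HFD). Total RNA of 10 livers and of 10 adipose tissues was pooled by diet, and each tissue was measured on 1 array whose green channel (Cy3) held the ND pool and whose red channel (Cy5) held the HFD pool. The fat depot and the number of animals in each pool are not given in the sources used here, nor is it stated if liver and fat were taken from the same animals. The pools hide the spread between animals. Without replicate arrays or a dye swap no p-value can be given, a probe's dye effect cannot be told apart from the diet, and tissue cannot be told apart from array.

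Values are log2 channel levels, and a difference is the log2 ratio of the high-fat over the normal-diet channel. The error beside a ratio is the scanner software's own estimate for the probe, which does not include animal variation. The threshold for counting a gene as higher or lower was 2-fold. A member was measured when a probe was well above background in both channels, which held for 64 members in liver and 64 in adipose tissue. In liver another 3 passed in the HFD channel only, 1 in the ND channel only and 25 in neither. In adipose tissue another 5 passed in the HFD channel only and 24 in neither. Over all probes of the adipose array, 4188 passed in the HFD channel only and 520 in the ND channel only. On the liver array these were 867 and 790. No spot was saturated. Both arrays bore out their tissue labels: hepatocyte markers summed to a log2 level of 20.12 in the ND channel of the liver array and 16.47 on the adipose array, and adipocyte markers to 14.41 and 20.05.

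Bile acids circulate between liver and intestine. Hepatocytes take them up from blood through Slc10a1 and the Slco carriers and pump them into bile through Abcb11, while cells of the terminal ileum reclaim them through Slc10a2 and release them to blood through the Slc51a and Slc51b heterodimer. Other ABC pumps move phospholipid, cholesterol, plant sterols, drugs and conjugates across the same membranes, and the Abcd proteins work on organelle membranes inside the cell.

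The diet contrast was small for transporters in liver and wide for a few of them in adipose tissue. In liver 1 of 64 measured members was at least 2-fold higher (1.56%), against a background of 0.491% of 13642 genes, and 0 were lower, against 0.579%. With all local backgrounds as deposited the liver background was smaller, 0.147% higher and 0.257% lower. In adipose tissue 7 of 64 were higher (10.9%), against 4.23% of 14315 genes, and 5 were lower (7.81%), against 5.13%. The median ratio of the members was 0.05 in liver, where all genes had 0.01, and 0.06 in adipose tissue, where all genes had -0.01. Of 57 members measured in both tissues, 33 had the same sign of ratio in both (57.9%), against 54.8% of 12689 genes, and 0 were at least 2-fold apart in both, against 0.221% of those genes.

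**Figure D1:**
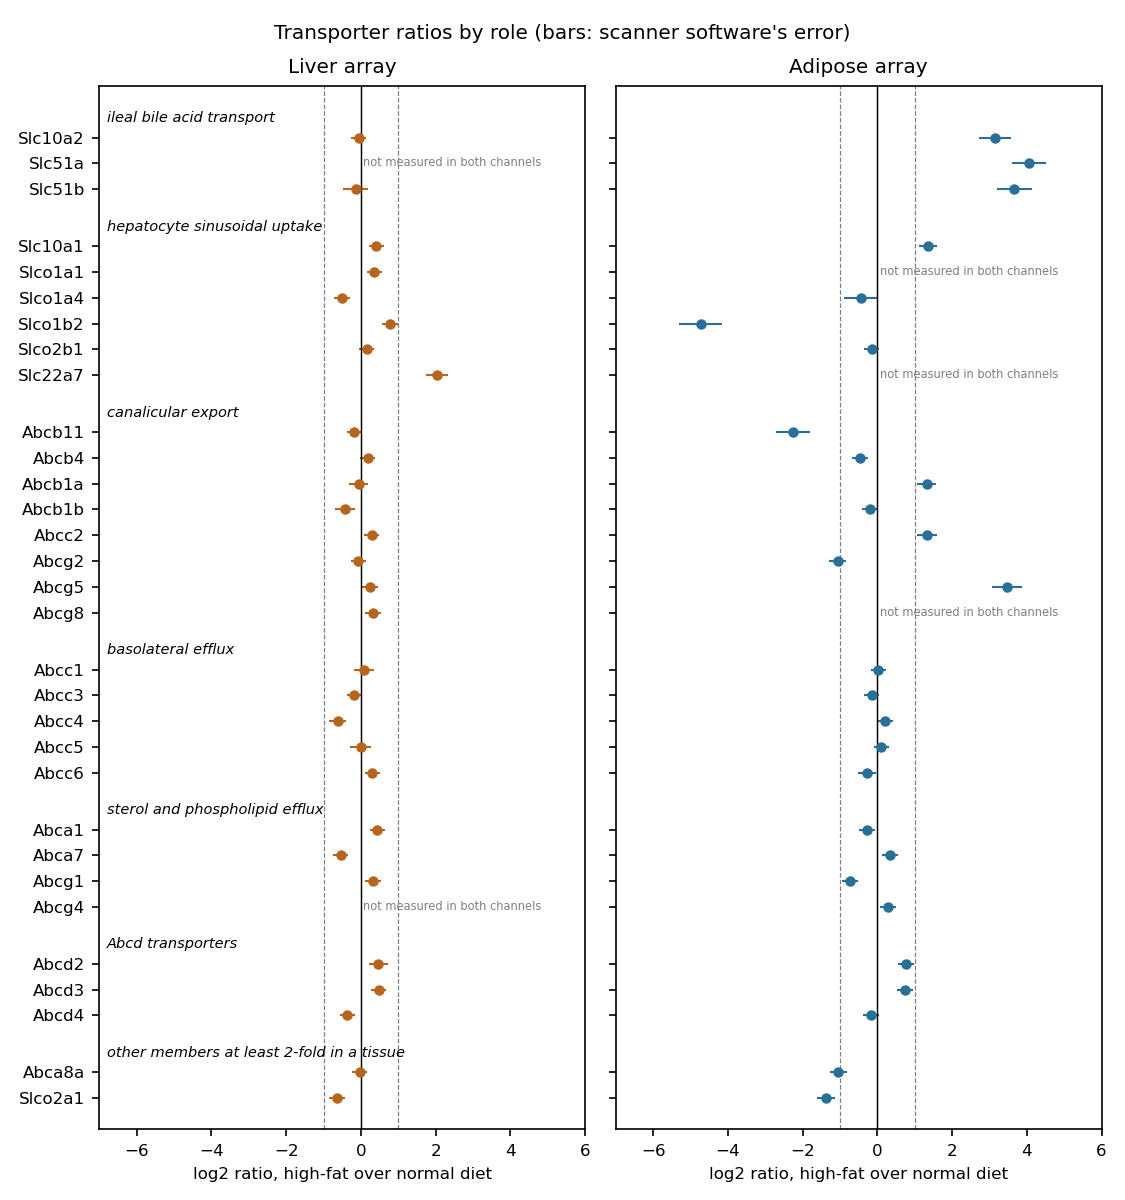
Log2 ratio of the high-fat over the normal-diet channel for members reported from 6 role lists and for other members at least 2-fold apart, on the liver array (left) and the adipose array (right). Points are genes, bars are the scanner software's error and dashed lines mark 2-fold. In liver Slc22a7 alone lies past a dashed line, at 2.03, while in adipose tissue the ileal carriers lie between 3.15 and 4.06 and Slco1b2 at -4.73.

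The ileal bile acid carriers were the members farthest above 0 in adipose tissue, together with the sterol half-transporter Abcg5. Slc51a, the alpha subunit of the basolateral bile acid exporter, had a level of 8.96 in the ND channel and 13.01 in the HFD channel of the adipose array, and its probe was not well above background in either channel of the liver array. That is a ratio of 4.06 (scanner error 0.46), or 16.7-fold. Slc51b, its beta subunit, stood at 7.97 and 11.63 in adipose tissue and at 6.93 and 6.79 in liver. The high-fat fat pool was thus the bright sample of the 4, with a ratio of 3.66 (error 0.47) in adipose tissue against -0.14 (error 0.33) in liver. The scanner software gave 4.51 and -0.53. Slc10a2, the apical sodium-dependent bile acid transporter, had levels of 7.88 and 11.02 in adipose tissue and of 9.58 and 9.51 in liver. Its ratio was 3.15 (error 0.43) in adipose tissue and -0.06 (error 0.20) in liver, where both channels lay between the 2 levels of the adipose array. The software's log ratio in adipose tissue was 4.03.

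Abcg5 forms, with Abcg8, the heterodimer that exports cholesterol and plant sterols into bile and into the gut lumen. Its levels in adipose tissue were 9.15 under ND and 12.60 under HFD, a ratio of 3.46 (error 0.41), and in liver 12.91 and 13.15, a ratio of 0.25 (error 0.21). The high-fat fat pool came close to the liver pools, while the normal-diet fat pool was far dimmer. Abcg8 was well above background in the high-fat channel only in adipose tissue, where it was at least 1.66-fold higher, a bound that is open to dye bias. In liver it had levels of 8.40 and 8.73.

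The sequences before the start sites of these genes are shown because their transcripts lay at the top of the list together. They come from RefSeq (GRCm38.p6), in which 73 of the 93 members had an entry, and each of the first 3 lists the 250 bases before the annotated start, 5′ to 3′ on the gene's strand. Capitals mark 3 kinds of match on either strand: AGGTCA, a half-site of nuclear receptors, CAAAGTCCA, an HNF4 site, and the E-box CACGTG. Abcg5 and Abcg8 run away from each other, so the 109 bases between their starts serve both and are given on the strand of Abcg8.
Slc51a (chr16:32487880-32488129, minus strand): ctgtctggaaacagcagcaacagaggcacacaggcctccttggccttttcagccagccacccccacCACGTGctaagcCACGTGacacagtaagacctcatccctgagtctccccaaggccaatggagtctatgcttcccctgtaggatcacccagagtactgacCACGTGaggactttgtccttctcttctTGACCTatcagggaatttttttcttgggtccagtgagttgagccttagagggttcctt
Slc51b (chr9:65422774-65423023, minus strand): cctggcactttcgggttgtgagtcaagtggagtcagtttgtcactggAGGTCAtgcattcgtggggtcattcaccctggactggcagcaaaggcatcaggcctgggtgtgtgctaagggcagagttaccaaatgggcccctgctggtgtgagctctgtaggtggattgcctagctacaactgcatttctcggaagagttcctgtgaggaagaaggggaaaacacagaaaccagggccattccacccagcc
Slc10a2 (chr8:5105288-5105537, minus strand): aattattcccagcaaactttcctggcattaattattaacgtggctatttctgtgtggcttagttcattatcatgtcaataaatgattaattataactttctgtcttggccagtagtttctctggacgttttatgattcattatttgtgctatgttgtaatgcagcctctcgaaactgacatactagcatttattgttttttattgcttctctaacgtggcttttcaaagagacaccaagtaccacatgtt
Abcg5 and Abcg8 (chr17:84683012-84683120, plus strand): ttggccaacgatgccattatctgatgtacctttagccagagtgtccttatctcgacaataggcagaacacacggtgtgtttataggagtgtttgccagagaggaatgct

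Slc51a and Slc51b each held 1 AGGTCA half-site, which 14.0% of 32851 promoter windows of the same 250 bases hold. Slc10a2 and the stretch between Abcg5 and Abcg8 held no match. Slc51a also held 3 E-boxes, where 6.02% of windows hold at least 1 and 0.0609% hold 3 or more. The E-box was searched after the sequence of Slc51a had been seen. CAAAGTCCA, which is in 0.384% of windows, was in none of the 4 stretches. The full inverted repeat of the nuclear receptor half-site, AGGTCANTGACCT, which overlaps the half-site, was in none of them either and is in 0.0061% of windows. A match describes the letters only.

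These members lay higher in the channel in which transcripts of the small intestine were higher too. All 13 intestinal marker genes listed were brighter in the high-fat channel of the adipose array: 11 of 11 measured were at least 2-fold higher, with a median ratio of 3.96, and 2 more were above background in that channel only. Their summed log2 level went from 13.23 to 18.45, and none was below background in the HFD channel. Fabp2, a fatty acid binding protein of enterocytes, had 6.42, the brush border disaccharidase Sis 5.76 and the brush border protease Mep1b 5.36. Among bile duct and epithelial markers 3 of 5 measured were higher, and summed from 12.64 to 15.02. The part of intestinal RNA in the transporter ratios was not tested. In bulk tissue, more cells of a type and more RNA per cell cannot be told apart.

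Genes that work with the transporters were set beside them. Of 39 regulators and partners of transport, 33 were measured in adipose tissue, with 11 at least 2-fold higher, 3 lower and a median of 0.05. Over all genes of the adipose array 4.23% were higher and 5.13% lower. Fabp6, which binds bile acids inside ileal cells, had levels of 11.47 and 16.70 and a ratio of 5.23. Npc1l1, the intestinal cholesterol importer, had 7.57 and 11.04, a ratio of 3.47. Fgf15, the ileal hormone that limits bile acid synthesis, was above background in the HFD channel only and at least 3.57-fold higher. The scaffold proteins Pdzk1 (2.44) and Slc9a3r1 (2.10) and the membrane linker Ezr (1.89) were higher, as were the apolipoprotein Apoa1 (2.08) and the aminophospholipid flippase Atp8b1, with levels of 7.27 and 8.37. Higher too were the nuclear receptors Nr1h4, the bile acid sensor, at 1.54, Nr1i2, the xenobiotic sensor, at 1.12, and Hnf4a at 1.90. The lower ones were the liver bile acid and fatty acid ligases Slc27a5 (-4.24) and Slc27a2 (-2.58) and the oxysterol hydroxylase Cyp7b1 (-1.49).

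The hepatocyte transporters Slco1b2 and Abcb11 lay at the other end. Slco1b2, an uptake carrier for bile acids and bilirubin, had levels of 11.01 in the ND channel and 6.28 in the HFD channel of the adipose array, and of 15.76 and 16.53 in the liver. Its ratio in adipose tissue was -4.73 (error 0.58), a 26.5-fold difference that rests on a dim HFD channel and was -5.73 with the software's log ratio, so that the high-fat fat pool was the dimmest of the 4. Abcb11, the canalicular bile salt export pump, had 8.08 and 5.83 in adipose tissue and 13.72 and 13.55 in liver. Its ratio of -2.25 (error 0.46) in adipose tissue rests on a dim HFD channel, close to the lowest measured level there of 5.66, and was -4.26 with the scanner software's log ratio and -3.20 with an offset of 10.

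Other sinusoidal and canalicular members were spread over both sides of 0 in adipose tissue, and Abcg2, described further on, was the other canalicular member at least 2-fold lower. Abcb4, the phosphatidylcholine translocator, had levels of 11.34 and 10.87 in adipose tissue, a ratio of -0.46 (error 0.21). Slco1a4, an organic anion carrier, had 6.77 and 6.32, a ratio of -0.45 (error 0.44), which the software gave as -1.51, past 2-fold. Slco2b1, a broad organic anion carrier, had -0.15. Slco1a1 and Slc22a7 were not well above background on the adipose array.

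Hepatocyte markers lay on the same side as Slco1b2 and Abcb11. On the adipose array all 13 were measured and 11 of them were at least 2-fold lower in the HFD channel, with a median of -4.29. Their summed level went from 16.47 to 12.36. Ambp was at -5.59, the fibrinogen chain Fgg at -5.32 and antithrombin, Serpinc1, at -4.93. Markers of the exocrine pancreas (12 of 12 measured, median -2.17, summed level 14.96 to 12.64), of sperm and epididymis (6 of 6, median -3.09, 16.39 to 13.04) and of skeletal muscle (5 of 9, median -1.48, 14.28 to 12.49) were lower as well. Of the sperm and epididymis list, Adam7 was above background in the HFD channel only and Lcn5 in the ND channel only. Adipocyte markers had a median of 0.31, with the hormone Lep higher at 1.66 and the protease Cfd lower at -1.70. The part of these other tissues in the transporter ratios was not tested.

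**Figure D2:**
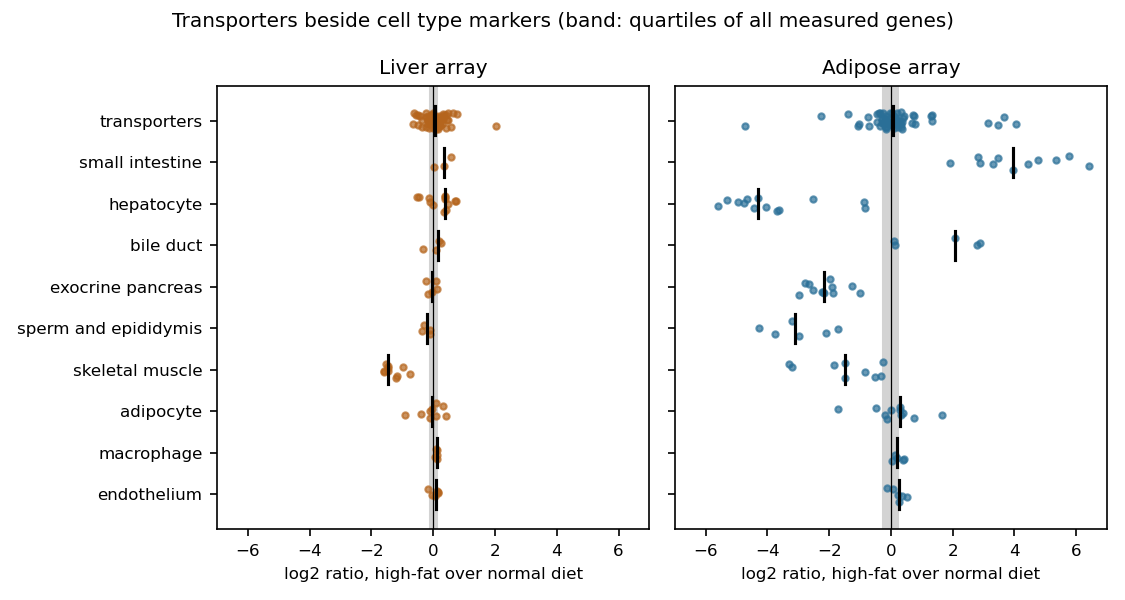
Log2 ratio of the high-fat over the normal-diet channel for the measured transporters and for 9 lists of cell type markers on the liver array (left) and the adipose array (right). Points are genes, spread vertically for visibility, black bars are medians and the grey band holds the middle part of all measured genes, from the lower to the upper quartile. In adipose tissue the intestinal markers lie at a median of 3.96 and the hepatocyte markers at -4.29, and the transporters farthest from 0 lie within the ranges of those lists.

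Slc10a1, the sodium-dependent bile acid uptake carrier of hepatocytes, counts among the 7 higher members in adipose tissue on 1 of its 2 probes. That probe read 16.31 and 17.65 on the adipose array and 16.66 and 17.24 in liver, so it was as bright in fat as in liver. The other probe was not well above background in either channel in fat and read 11.96 and 12.20 in liver. The ratio of 1.35 (error 0.24) in adipose tissue therefore comes from 1 probe whose partner did not detect the transcript. Averaging both without the filter on dim probes gave 0.45. Without the brighter probe 6 members were at least 2-fold higher in adipose tissue. In liver the probes gave 0.23 and 0.59.

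The drug and conjugate pumps Abcc2 and Abcb1a were the remaining members higher in adipose tissue. Abcc2, a canalicular and apical exporter of glucuronide and glutathione conjugates, had levels of 7.87 and 9.20 there and of 12.85 and 13.14 in liver. The adipose ratio was 1.33 (error 0.26) and the liver ratio 0.29 (error 0.21). Abcb1a, which encodes the P-glycoprotein that dominates in intestine and vessels, had 8.78 and 10.09 in adipose tissue and 7.26 and 7.20 in liver, ratios of 1.31 (error 0.26) and -0.06. Its paralogue Abcb1b had 9.82 and 9.62 in adipose tissue, a ratio of -0.19, and 7.35 and 6.92 in liver, a ratio of -0.43. The paralogues are close in sequence, and how far each probe binds the other transcript was not tested.

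Another 3 members were lower in adipose tissue. Slco2a1, which takes up prostaglandins, had levels of 12.47 and 11.09 there and of 12.14 and 11.49 in liver, with ratios of -1.38 (error 0.24) and -0.65 (error 0.21). It was dimmer in the HFD channel in both tissues. Abcg2, the breast cancer resistance protein that exports urate and drugs, had 14.45 and 13.39 in adipose tissue and 13.25 and 13.19 in liver, ratios of -1.06 (error 0.23) and -0.07. Abca8a, an ABC lipid transporter, had 10.10 and 9.05 in adipose tissue and 8.98 and 8.94 in liver, ratios of -1.04 (error 0.23) and -0.03, and its neighbour Abca8b had -0.17 in adipose tissue.

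Under median centring in place of loess the median of all measured genes shifted to 0.69 in adipose tissue and 0.32 in liver, and the share of at least 2-fold genes that were higher went from 45.1% to 87.2% in adipose tissue and from 45.9% to 94.1% in liver. The transporters then counted 19 higher in adipose tissue (29.7%, all genes 29.4%) and 2 lower (3.13%, all genes 4.3%), and in liver 6 higher (9.38%, all genes 3.26%) and 0 lower (all genes 0.205%). Counted from the shifted median of all genes, 9 members were at least 2-fold higher in adipose tissue (14.1%, all genes 5.92%) and 5 lower (7.81%, all genes 11.4%). In liver 2 were then higher (3.13%, all genes 1.08%) and 0 lower (all genes 0.55%). Slco2a1 stayed past 2-fold from that median at -1.05. Abcg2 was at 0.07 before and -0.63 after the shift was taken off, so it stayed below the median of all genes but under 2-fold, and Abca8a was at -0.18 before it was taken off and was not past 2-fold after.

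**Figure D3:**
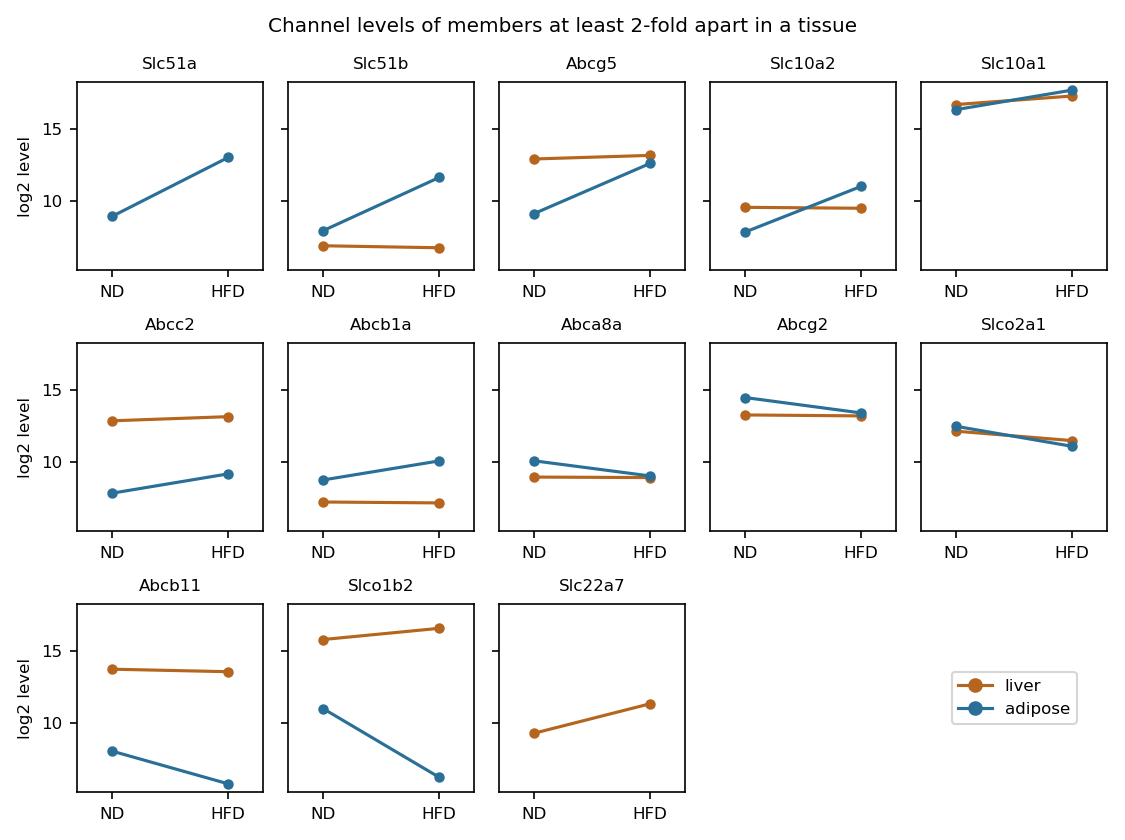
Log2 channel levels of the 13 members at least 2-fold apart in a tissue, in the normal-diet (ND) and high-fat (HFD) pools of the liver array (brown) and the adipose array (blue). Each point is 1 pool on 1 array, read on the same probes in both tissues, and a missing line means that the gene was not measured there. Slc51a, Slc51b, Abcg5 and Slc10a2 climb in fat while their liver lines are flat or missing, and Slco1b2 goes from 11.01 to 6.28 in fat.

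In liver the member farthest from 0 was an uptake carrier of the sinusoidal membrane. Slc22a7, the organic anion transporter 2, had levels of 9.31 in the ND pool and 11.34 in the HFD pool, a ratio of 2.03 (error 0.29), or 4.09-fold, on 1 probe. With all local backgrounds as deposited it was 1.08, and the cause of that difference was not tested. Slc22a7 is known from kidney as well as liver. Of 9 kidney tubule markers, 3 were measured on the liver array, with a summed level of 9.30 under ND and 10.53 under HFD. The adhesion protein Cdh16 had 6.95 and 9.32, a ratio of 2.37, the water channel Aqp2 had 0.86 and the phosphate carrier Slc34a1 had 0.14. The kidney markers Umod and Kap and the renal organic anion carriers Slc22a8 and Slc22a12 were not well above background in liver. Slc22a6, the renal organic anion transporter 1, had -0.18. The part of kidney RNA in the Slc22a7 ratio was not tested.

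The other sinusoidal carriers stayed under 2-fold. Slco1b2, at the levels given above, had a liver ratio of 0.77 (error 0.21), and genes of its brightness on that array, between 16 and 17, had a median of 0.35. Slc10a1 had 0.41 (error 0.21), Slco1a1 0.36 with 11.13 and 11.49, and Slco2b1 0.15. Slco1a4 was the lower one, at 11.18 and 10.68, a ratio of -0.50 (error 0.21). As a group the 7 sinusoidal carriers had a median of 0.41 in liver, which is the value of Slc10a1, with 1 higher and 0 lower. Hepatocyte markers had a median of 0.37 with none past 2-fold. Their median levels were 16.53 and 16.87, in the range of brightness where all genes had 0.35.

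Canalicular exporters differed little between the diets in liver. All 8 were measured, 0 passed 2-fold, and the median was 0.06. Abcb11 had -0.17 (error 0.20), Abcb4 0.18 with levels of 15.58 and 15.76, Abcc2 0.29, Abcg5 0.25, Abcg8 0.33 and Abcg2 -0.07. The lowest of them, Abcb1b, was a dim probe at -0.43 (error 0.26).

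Among the basolateral exporters, which return conjugates and bile acids to blood, Abcc4 was the lowest in liver. It had levels of 8.18 and 7.55, a ratio of -0.63 (error 0.23), which the scanner software gave as -1.07. It was -0.06 when local backgrounds were left as deposited. Abcc3, an exporter of glucuronides, had 14.36 and 14.19 in liver, a ratio of -0.18, and 11.25 and 11.10 in adipose tissue, a ratio of -0.15. Abcc6, whose loss causes ectopic calcification, had 0.30 in liver and -0.28 in adipose tissue. Abcc1, an exporter of glutathione conjugates, and Abcc5, an exporter of cyclic nucleotides, stayed between -0.01 and 0.11 in both tissues. The 4 probes of Abcc5 spread from -0.15 to 0.16 in liver and from -0.16 to 0.24 in adipose tissue.

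The sterol and phospholipid exporters stayed under 2-fold in both tissues. Abca1, which loads cholesterol onto apolipoprotein, had levels of 12.03 and 12.48 in liver, a ratio of 0.44 (error 0.21), and 12.90 and 12.62 in adipose tissue, a ratio of -0.28 (error 0.21). Abcg1, which passes cholesterol to mature HDL particles, had 8.57 and 8.90 in liver, a ratio of 0.32, and 12.54 and 11.80 in adipose tissue, a ratio of -0.74 (error 0.22). Abca7, a relative of Abca1, had -0.54 in liver and 0.34 in adipose tissue. The signs of all 3 were opposite between the tissues, and that difference was not tested. Under median centring, counted from the median of all genes, Abca1 had 0.62 in liver and 0.11 in adipose tissue, the same sign. Abcg1 (0.32 and -0.39) and Abca7 (-0.44 and 0.65) stayed opposite there. Abcg4 was measured in adipose tissue only, at 0.28.

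The peroxisomal half-transporters Abcd2 and Abcd3 had positive ratios in both tissues. Abcd3, which imports branched and dicarboxylic fatty acids into the peroxisome, had levels of 15.54 and 16.01 in liver, a ratio of 0.47 (error 0.21), and 13.17 and 13.90 in adipose tissue, a ratio of 0.73 (error 0.21). Abcd2, an importer of very long chain fatty acids, had 7.18 and 7.65 in liver, a ratio of 0.47 (error 0.25), and 8.36 and 9.13 in adipose tissue, a ratio of 0.77 (error 0.22). Neither reached 2-fold at these values, but some alternatives put them past it. The software's log ratio put Abcd2 in liver at 1.02, while local backgrounds as deposited put it at 0.03. Its liver ratio of 0.47 was under 2 times the scanner error. Under median centring, counted from the median of all genes, Abcd3 in adipose tissue was at 1.14, past 2-fold. Abcd2 in adipose tissue (0.81) and both genes in liver stayed under 2-fold there. Before that shift of all genes was taken off, Abcd2 in adipose tissue and Abcd3 in liver were past 2-fold as well. The lysosomal cobalamin transporter Abcd4 had -0.36 in liver and -0.17 in adipose tissue.

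Further members lay closer to 0. The orphan carrier Slc22a23 had 0.57 in liver and -0.01 in adipose tissue, and Slc22a18 had -0.02 and 0.73. Abca17 had 0.66 in liver and 0.36 in adipose tissue. The organic cation transporter Slc22a2, best known from kidney, was measured in adipose tissue only and had 0.68 there. The carnitine transporter Slc22a16 was measured in adipose tissue only, at a dim -0.70 (error 0.32).

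Carnitine carriers had Slc22a21 and Slc22a5 at 0.18 each in liver, and Slc22a4 at 0.36 in adipose tissue. The Slc10 carriers outside bile acid transport reached 0.08 (Slc10a7) and -0.07 (Slc10a3) in liver, and 0.21 (Slc10a3) and -0.29 (Slc10a6, a carrier of sulfated steroids) in adipose tissue. Among the renal type carriers Slc22a13 had 0.07 in liver and Slc22a6 -0.39 in adipose tissue, and Slc22a13b had -0.50 in liver. In the Slc22 gene cluster Slc22a28 had 0.23 in liver and -0.21 in adipose tissue, and Slc22a27 -0.08 in liver. Slc22a17, a lipocalin receptor, had 0.07 in liver and -0.34 in adipose tissue. Slco3a1 had 0.22 in liver, and Slco4a1, a thyroid hormone carrier, 0.32 in adipose tissue.

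The lipid transporters of the Abca family and the organelle members made up most of the rest. In the cluster from Abca5 to Abca9, Abca8b had -0.37 and Abca5 -0.15 in liver, and Abca5 had -0.34 in adipose tissue. Abca2 had -0.24 in liver, and Abca3, the lamellar body transporter, -0.16 in adipose tissue. Of the mitochondrial and lysosomal Abcb members, Abcb9, a lysosomal peptide carrier, had 0.17 in liver, and Abcb10 had 0.42 and Abcb6, a porphyrin transporter, 0.39 in adipose tissue. The channel-regulating Abcc9, a subunit of potassium channels, had 0.23 in liver and -0.27 in adipose tissue, and Abcc10 had -0.22 and 0.34. Bounds for members seen in 1 channel only all lay under 2-fold, the highest being 1.54-fold for Abca15 in liver and the 1.66-fold of Abcg8 in adipose tissue.

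Among regulators and partners in liver, 36 of 39 were measured, with a median of 0.13, 1 higher and 1 lower. Over all genes of the liver array 0.491% were higher and 0.579% lower. Cyp7a1, which sets the rate at which cholesterol is turned into bile acids, had levels of 10.71 and 12.11, a ratio of 1.40 (error 0.25). Nr0b2, the nuclear receptor that represses it, had 9.50 and 8.12, a ratio of -1.38 (error 0.25). Nr1h4, which sits upstream of both, had 0.15. Skeletal muscle markers differed in liver as well, 8 of 10 measured being lower, with a median of -1.47 and a summed level of 15.75 under ND and 14.29 under HFD. Their part in the transporter ratios was not tested.

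More members differed between the tissues at 4-fold than between the diets at 2-fold. In the normal-diet channel 58 members were above background in both tissues, 7 in liver alone, 6 in adipose tissue alone and 22 in neither. Over all genes, 12899 of 20886 were above background in both tissues on the same probe. The other classes were not counted over all genes, so the 7, 6 and 22 members have no background beside them. Of the 58, 14 were at least 4-fold brighter on the liver array (24.1%), against 6.61% of 12899 genes, and 6 on the adipose array (10.3%), against 7.99%. The median difference, liver minus adipose, was 0.23 for members and 0.06 for all genes. The scaling gives both arrays the same distribution of brightness, and each difference was taken on the same probes.

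On the liver side Abcb11 had levels of 13.72 in liver and 8.08 in fat, a difference of 5.64, and Abcc6 followed at 5.34, Abcc2 at 4.98, Slco1b2 at 4.76, Slco1a4 at 4.41 and Abcb4 at 4.25. Each of these is known from the plasma membrane of hepatocytes. Abca6 (3.85), Abcg5 (3.76), Slc22a18 (3.32), Abcc3 (3.11), Abcb6 (2.62), Abcd3 (2.37) and Slc22a28 (2.34) were also among the 14. Slco1a1 was above background in liver only and at least 28.2-fold brighter there, Slc22a7 at least 8.28-fold and Abcg8 at least 4.07-fold. In the HFD channel Slco1b2 differed by 10.26, Abcb11 by 7.72, Abcb4 by 4.89, Slco1a4 by 4.36, Abcc2 by 3.94 and Abcg5 by 0.55. The size of such differences thus depended on the pools compared.

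On the adipose side Abcg1 had levels of 12.54 in fat and 8.57 in liver, a difference of -3.97. Slc22a17 had -3.05, Abcb1b -2.47, Abcc1 -2.41, Abcb9 -2.35 and Slc10a6 -2.24. Slc51a was above background in fat only and at least 6.79-fold brighter there. The scanner error belongs to the ratio within an array and does not measure these differences between arrays. Close neighbours in this order, such as Slco1a4 and Abcb4, are therefore not separated.

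**Figure D4:**
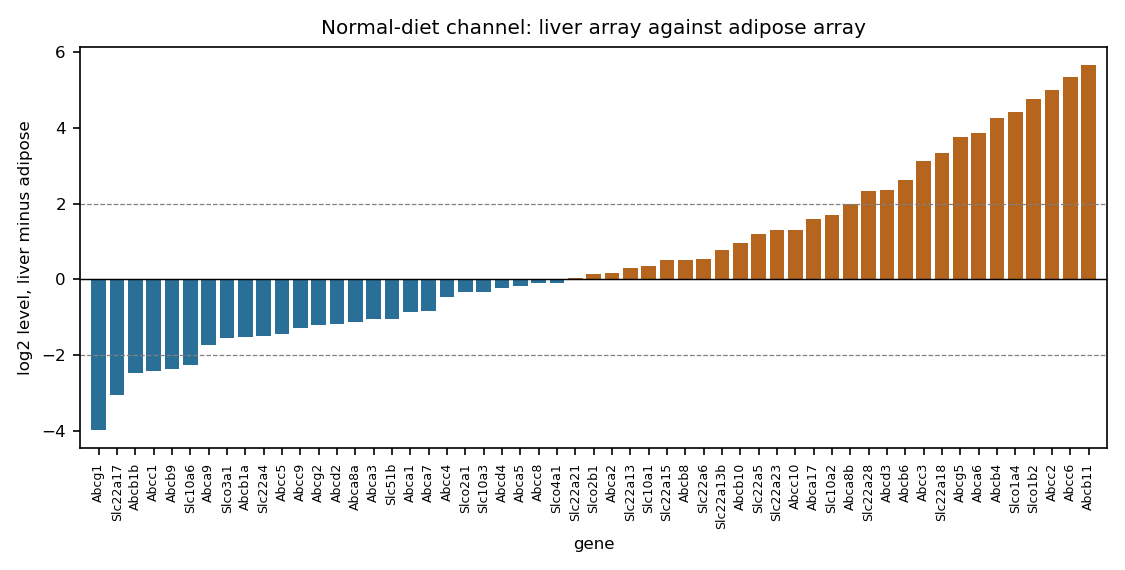
Difference in log2 level, liver array minus adipose array, in the normal-diet channel for 55 of the 58 members above background in both tissues, sorted. Bars above 0 (brown) are brighter in liver, bars below 0 (blue) in fat, and dashed lines mark 4-fold. The order runs from Abcg1 at -3.97 to Abcb11 at 5.64.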

How the data were processed

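The deposited scanner files give median spot and local background intensity per channel, not normalized, and a log10 ratio with its error. The version of Agilent Feature Extraction is 11.5.1.1 per the file headers (protocol GE2_1105_Oct12) and 8.5.1.1 per the submitters' processing notes. Intensities were corrected with normexp (offset 50) and loess in limma 3.58.1 (R 4.3.3), with control spots at weight 0. Local backgrounds marked as outliers were replaced by the array's median (liver, 1602 red and 665 green; adipose tissue, 1480 red and 406 green). The median spot signal was 93 green and 127 red in liver and 97 and 274 in adipose tissue, over backgrounds of 28 to 52.5, and 58.5% and 58.8% of probes were above background in both channels. Channel levels were scaled between arrays with Aquantile. Of 39429 probes, 27508 matched 1 gene through the transcript accession. Probes of a gene were averaged. For a gene measured in 1 channel, the bound sets the dim channel to the higher of its own and the lowest measured signal. With 1 array per tissue, precision is limited to the scanner's error (median 0.21). Background correction and loess were tested on simulated data with known changes in bright probes. Dim channels, averaging of probes, bounds and levels between arrays were not tested in that way.

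Members, lists and rules were chosen with earlier results of these data known. Named were all members at least 2-fold in a tissue, all measured members of the uptake, canalicular, basolateral, ileal and sterol lists, the 2 farthest from 0 in each other list and tissue, regulators at least 2-fold, and the 3 markers farthest from 0. Some genes that the rule takes are left out of the text and figures. Slc22a13b was named after its value was seen. Alternatives tried were median centring, an offset of 10, raw signals without subtraction, backgrounds as deposited, the scanner software's ratio, 2 other filters on dim probes, the brightest probe and a ratio over 2 times the error.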

Additional observations from a re-analysis of the deposited data

Results flagged for a closer look

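Slco1b2, the hepatocyte uptake carrier, was the only member measured in both tissues whose ratios exceeded 2 times the scanner error in opposite directions: the liver ratio was 0.77 and the adipose ratio -4.73. That difference between the tissues was not tested, since each tissue has 1 array. Liver genes of the brightness of Slco1b2, between 16 and 17, had a median of 0.35. Hepatocyte markers also had medians of opposite sign, 0.37 in liver and -4.29 in adipose tissue. The share of all genes with opposite ratios past 2 times the error was not counted.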

How the results depend on the processing

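The 12 adipose calls stayed at least 2-fold under 7 of the 9 alternatives run. Each call rests on 1 measured probe. Its ratio was therefore the same with the brightest probe, the filter on at least 1 channel and the error rule. Those settings could not move it. The filter on dim probes, when removed, lost Slc10a1, leaving 6 higher and 5 lower. Median centring gave liver 6 higher and a median of 0.3451, and adipose tissue 19 higher, 2 lower and a median of 0.7989, and it put Abcg2 in adipose tissue at 0.0659, which is -0.63 from the median of all genes, since the setting shifted all genes. Counted from the shifted median of all genes, which was added after seeing the data, liver had 2 higher members. The software's log ratio gave 2 higher and 1 lower in liver. Members over 2 times the scanner error had medians of 0.4408 in liver (11 members) and 0.7018 in adipose tissue (20 members). The single liver call, Slc22a7, stayed at least 2-fold under the 9 alternatives. It has 1 probe, so the brightest probe, the 2 other filters on dim probes and the error rule left its ratio unchanged. The members at least 4-fold brighter on the liver array numbered 13 to 18 across the 7 alternatives that give channel levels. Restricting to probes whose gene name holds the symbol could not be run, because the scanner data hold no gene names. Genes were matched by transcript accession only. No paired analysis was possible because each tissue has 1 array and the result comes from no test. Dim channels limit the adipose ratios of Abcb11, Slco1b2, Slc51b, Slc10a2 and Slco1a4.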
